A study of Homo sapiens with 6 samples.

Results

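The CXC chemokine and colony-stimulating cytokine genes CXCL1, CXCL2, CXCL3, CXCL8, CSF1, CSF2, IL6, LIF, IL1A and IL11 were followed in HK-2 cells after knockdown of PARP1. They were taken by symbol, 10 of the 30403 genes in the count table, and each symbol matched 1 row. HK-2 is an immortalised line of human proximal tubule epithelium. Polyadenylated RNA was sequenced from 3 shPARP1 libraries, from HK-2 cells transfected with a plasmid for an shRNA against PARP1, and from 3 shCtrl libraries, from HK-2 cells transfected with a control shRNA plasmid. All cells received plasmid DNA with Lipofectamine 2000 in serum-containing medium and were harvested after 48 h. The labels do not say how many shRNA sequences were used, what share of cells took up plasmid, or whether replicates came from separate cultures, so p-values measure only the spread between these libraries. PARP1 makes poly(ADP-ribose) on itself and on chromatin proteins.

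The members were selected on their measured fold changes between these same shPARP1 and shCtrl libraries. Their levels and fold changes are therefore given as a description, without a test. Of the 10, 8 passed the filter on low counts, and CXCL1 and IL1A did not. By the rule applied to all 16040 tested genes (edgeR quasi-likelihood adjusted p under 0.05), 6 of the 8 were called higher in shPARP1 and 2 lower, where 55.7% of tested genes were called in either direction, 27.3% higher and 28.5% lower. With a 2-fold minimum added, 4 were called higher and 1 lower, where 6.48% of all tested genes passed in either direction, 2.41% higher and 4.07% lower. For all 8 the 3 shPARP1 libraries lay outside the range of the 3 shCtrl libraries, which held for 60.1% of tested genes. Nothing is read from these counts, since the same contrast chose the genes.

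CXC chemokines are small secreted proteins with paired cysteines, and those with a Glu-Leu-Arg motif, such as CXCL1, CXCL2, CXCL3 and CXCL8, attract neutrophils through the receptors CXCR1 and CXCR2. The colony-stimulating factors act on myeloid cells, CSF1 on macrophages and CSF2 (GM-CSF) on granulocytes and macrophages. IL6, LIF and IL11 signal through receptor complexes that contain gp130, the product of IL6ST, and IL1A is an alarmin that many epithelia store in the cell. In the kidney, injured tubule cells are a known source of several of these factors. Many of the genes are induced by NF-kB and AP-1, and their mRNAs are short-lived through AU-rich elements in the 3' untranslated region.

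Library totals were 29387853 to 32809303 counts in shPARP1 and 24429683 to 26269194 in shCtrl, so the shPARP1 libraries were all deeper. Mitochondrial genes took 9.94% to 10.8% of counts in shPARP1 and 12.0% to 13.1% in shCtrl. PARP1 itself had 26.1 to 28.8 CPM (counts scaled to library size with TMM factors) in shPARP1 and 258 to 263 CPM in shCtrl, so the knockdown was present in all 3 libraries. The epithelial markers KRT7, KRT8, KRT18, KRT19, EPCAM and CDH1 summed to 1120 to 1144 CPM in shPARP1 and 959 to 980 CPM in shCtrl. All 6 passed the filter, and they went both ways, with 3 called higher and 2 lower. The 10 proximal tubule markers summed to 585 to 613 CPM in shPARP1 and 719 to 750 CPM in shCtrl. Of these, 4 passed the filter, 3 fell and 0 rose, and LRP2 and HNF4A were among those with at most 3 counts a library on average. Of 8 leukocyte markers, PTPRC and MS4A1 had no row in the table and CD3E was near 0. The filter was passed by 4 of the 8, with 1 called higher and 2 lower. The summed leukocyte list, mostly CSF1R, was 30.3 to 34.0 CPM in shPARP1 and 40.2 to 43.9 CPM in shCtrl. Fibroblast markers summed to 9.37 to 10.7 CPM in shPARP1 and 18.9 to 22.4 CPM in shCtrl, and endothelial markers to at most 0.423 CPM in any library. The part of these marker differences in the cytokine values was not tested.

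**Figure D1:**
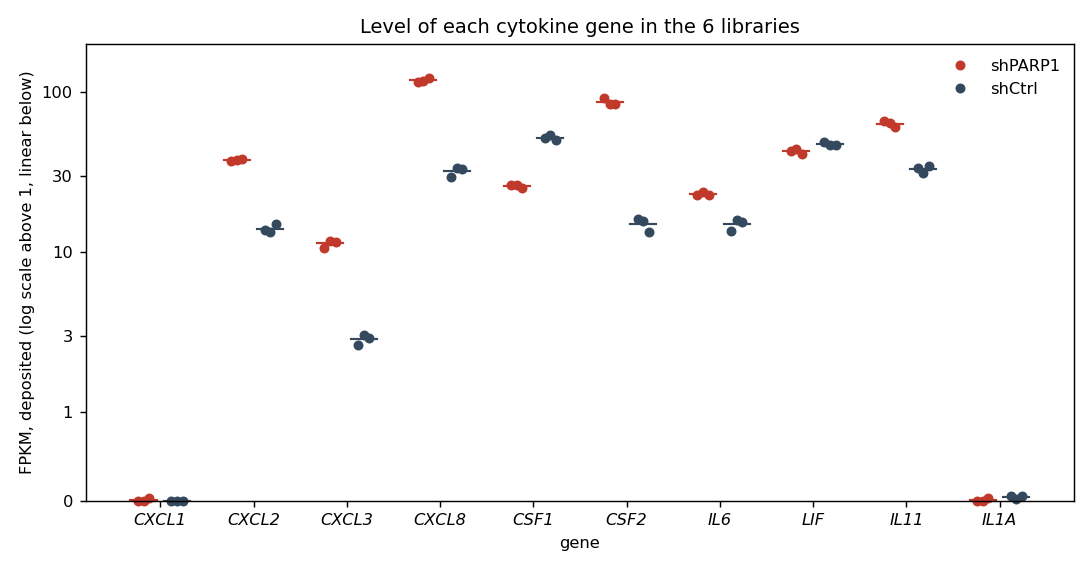
Deposited FPKM of the 10 genes in each of the 3 shPARP1 (red) and 3 shCtrl (dark) libraries, on an axis that is logarithmic above 1 and linear below; horizontal bars are group means. CXCL8 sits between 115 and 122 FPKM in shPARP1 and between 29.6 and 33.5 FPKM in shCtrl, while CXCL1 and IL1A lie at or near 0 in both groups.

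Among the neutrophil-attracting chemokines, CXCL8 was the most abundant and CXCL1 was almost absent. FPKM are fragments scaled to gene length and library size, so an order between genes depends on the lengths used, which were not given. CXCL8, also called interleukin-8, had 114.87, 117.67 and 122.42 FPKM in the shPARP1 libraries, against 29.64, 33.54 and 33.1 FPKM in the shCtrl libraries. The groups were far apart, and the lowest shPARP1 library was more than 3 times the highest shCtrl library. The means were 118 ± 3.82 FPKM in shPARP1 and 32.1 ± 2.14 FPKM in shCtrl (SD, n = 3 each), and the log2 fold change from the counts was 1.84 (SE 0.04). In bulk RNA, more RNA per cell and a larger share of expressing cells cannot be told apart. CXCL2 had 36.92, 37.49 and 38.04 FPKM in shPARP1 and 13.68, 13.34 and 14.95 FPKM in shCtrl, a log2 fold change of 1.38 (SE 0.06). CXCL3 was the least abundant of the 3 that were detected, with 10.65, 11.76 and 11.6 FPKM in shPARP1 and 2.63, 3.03 and 2.91 FPKM in shCtrl. Its log2 fold change of 1.94 (SE 0.12) lay within its error of that of CXCL8, and rested on 414 to 435 counts in shPARP1 and 79 to 96 counts in shCtrl.

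CXCL1 held 0, 0 and 1 counts in shPARP1 and 0 in each shCtrl library. At these depths 3 counts correspond to 0.0910 to 0.101 CPM in shPARP1 and 0.115 to 0.125 CPM in shCtrl, so a level below this could not be seen. CXCL1 is a close paralog of CXCL2 and CXCL3, and reads can be shared between such copies. In GENCODE 29, 4.81% of the 50-base words of CXCL1 transcripts also occurred in CXCL2 or CXCL3, and none of its 150-base words did. For CXCL2 the shared part was 12.5% of 50-base words and 1.83% of 150-base words, and for CXCL3 6.01% and 1.15%. For CXCL8, CSF1, CSF2, IL6, LIF and IL1A no word of either length was found in another gene, and for IL11 1.39% of 50-base words were. How the deposited counts treated shared reads is not given in the labels, so the split between CXCL1, CXCL2 and CXCL3 is uncertain to that extent.

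The 4 genes lie in 1 cluster on chromosome 4 (GRCh38), CXCL8 (73740506 to 73743716) and CXCL1 (73869393 to 73871242) on the plus strand, CXCL3 (74036589 to 74038807) and CXCL2 (74097035 to 74099293) on the minus strand. Their promoters are shown because CXCL1, at 0 or 1 count, and its expressed paralogs are closely alike there. Each run is the 170 bases before the transcription start in RefSeq, GRCh38.p14, 5' to 3' on the gene's strand. Capitals mark matches to the NF-kB consensus, GGAATTTCC, TGANTCA (AP-1), TTGCNNAA (C/EBP) or TATAAA on either strand. The regions are chr4:73869223-73869392 for CXCL1, chr4:74099196-74099365 for CXCL2, chr4:74038690-74038859 for CXCL3 and chr4:73740399-73740568 for CXCL8.
CXCL1 promoter: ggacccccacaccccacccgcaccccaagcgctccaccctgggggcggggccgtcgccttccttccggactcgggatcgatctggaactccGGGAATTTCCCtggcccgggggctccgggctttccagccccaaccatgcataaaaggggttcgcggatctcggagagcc
CXCL2 promoter: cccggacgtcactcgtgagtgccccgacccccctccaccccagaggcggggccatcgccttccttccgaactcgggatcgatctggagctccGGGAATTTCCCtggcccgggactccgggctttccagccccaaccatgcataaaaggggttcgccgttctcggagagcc
CXCL3 promoter: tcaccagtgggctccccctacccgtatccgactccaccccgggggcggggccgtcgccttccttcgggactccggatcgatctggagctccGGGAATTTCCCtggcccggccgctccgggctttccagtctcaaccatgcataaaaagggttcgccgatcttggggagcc
CXCL8 promoter: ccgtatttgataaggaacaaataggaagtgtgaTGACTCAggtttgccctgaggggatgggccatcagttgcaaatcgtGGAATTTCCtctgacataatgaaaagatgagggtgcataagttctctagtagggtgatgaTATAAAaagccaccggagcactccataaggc
The promoter windows of 300 bases (250 before and 50 after the start) were 82.5% identical between CXCL1 and CXCL3, 72.1% between CXCL1 and CXCL2 and 73.8% between CXCL2 and CXCL3 over the aligned columns. The same match to the NF-kB consensus stood at -79 to -70 in CXCL1 and CXCL3 and at -78 to -69 in CXCL2. It overlapped GGAATTTCC, which CXCL8 also held, at -91 to -83. CXCL8 alone of the 4 held TGANTCA, at -137 to -131, and TATAAA, at -31 to -26. Of all 35116 promoter windows of this length in the RefSeq table, 5.91% held the NF-kB consensus, 0.461% GGAATTTCC, 7.71% TGANTCA, 10.5% TTGCNNAA and 11.5% TATAAA. A match is a run of letters and not a measured binding site. The NF-kB match was thus present in CXCL1, at 0 or 1 count, as in CXCL2 and CXCL3.

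The make-up of the group differed a little between conditions. The summed FPKM of CXCL1, CXCL2, CXCL3 and CXCL8 was 162, 167 and 172 in shPARP1 and 46.0, 49.9 and 51.0 in shCtrl. CXCL8 made up 70.8% ± 0.326 of this sum in shPARP1 and 65.6% ± 1.44 in shCtrl (SD, n = 3 each). CXCL2 made up 22.4% ± 0.313 in shPARP1 and 28.6% ± 1.65 in shCtrl. The ratio of CXCL2 to CXCL3 in FPKM was 3.31 ± 0.142 in shPARP1 and 4.91 ± 0.444 in shCtrl. For each of these shares the 3 shPARP1 libraries lay outside the shCtrl range.

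**Figure D2:**
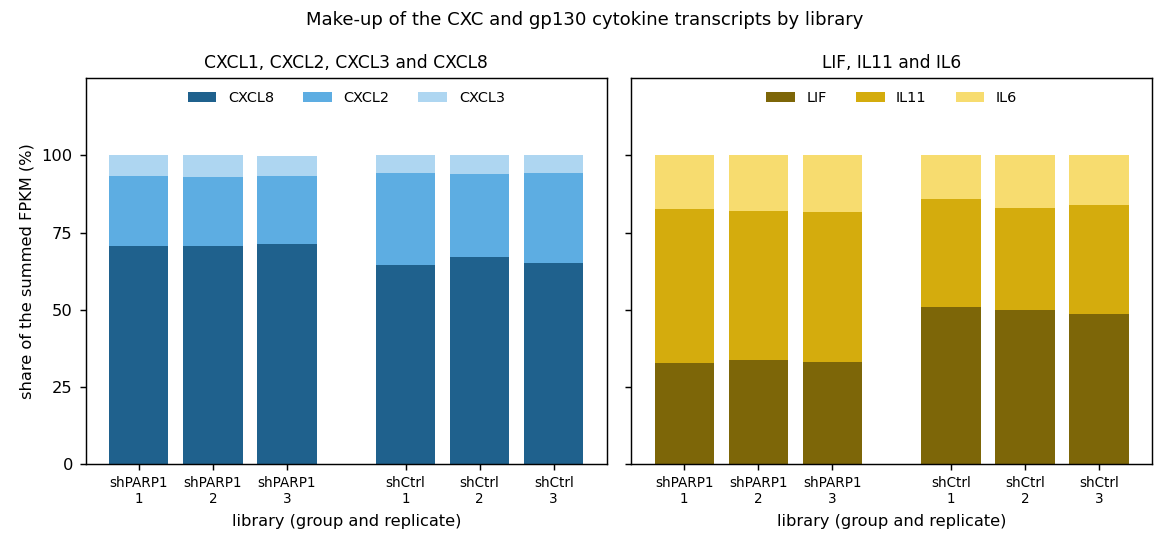
Share of the summed FPKM taken by each gene in each library, for the CXC chemokines (left) and the gp130 cytokines (right), with the 3 shPARP1 libraries left of the 3 shCtrl libraries. CXCL8 takes 70.5% to 71.1% in shPARP1 and 64.5% to 67.2% in shCtrl, and LIF takes 32.6% to 33.7% in shPARP1 and 48.4% to 50.8% in shCtrl.

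The colony-stimulating factors went opposite ways. CSF2 had 91.41, 84.72 and 84.4 FPKM in shPARP1, against 16.11, 15.61 and 13.41 FPKM in shCtrl. Its log2 fold change of 2.49 (SE 0.06) was larger than those of the other members, and 7 of 16040 tested genes lay above it. CSF1, the macrophage growth factor, had 26.4, 26.16 and 25.09 FPKM in shPARP1 and 51.65, 53.62 and 49.87 FPKM in shCtrl, a log2 fold change of -1.04 (SE 0.04). The libraries of each gene fell into 2 separate groups. The ratio of CSF2 to CSF1 in FPKM was 3.35 ± 0.112 in shPARP1 and 0.291 ± 0.0215 in shCtrl (SD, n = 3 each). By FPKM, CSF1 was thus the higher of the 2 in shCtrl and CSF2 in shPARP1. In reads not divided by length, CSF1 stayed above CSF2 in shPARP1, at 141 ± 4.13 CPM against 76.3 ± 3.71 CPM. The change of order thus rests on the gene lengths behind the deposited FPKM, which were not given. CSF2 (chromosome 5, 132073790 to 132076170, plus strand) has 787 bases of merged exons, and CSF1 (chromosome 1, 109910242 to 109930992, plus strand) has 5418. The CSF2 promoter, chr5:132073619-132073788, is shown because the gene changed more than the other members and held none of the motifs above.
CSF2 promoter: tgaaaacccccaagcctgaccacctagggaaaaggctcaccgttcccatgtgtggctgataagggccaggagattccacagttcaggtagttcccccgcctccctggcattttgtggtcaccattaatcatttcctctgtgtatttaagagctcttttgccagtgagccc
Binding of factors at this promoter was not measured here, and no match says only that these letters are not in the window.

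The 3 cytokines that share gp130 also differed from each other. IL11, a cytokine linked to fibrosis and platelet formation, had 65.72, 63.66 and 60.73 FPKM in shPARP1 and 33.62, 31.1 and 34.34 FPKM in shCtrl. IL6, the main inducer of the liver's acute-phase response, had 22.84, 23.59 and 22.73 FPKM in shPARP1 and 13.59, 15.86 and 15.37 FPKM in shCtrl. LIF, named for its action on leukemia cells, had 42.8, 44.38 and 41.18 FPKM in shPARP1 and 48.66, 46.75 and 46.69 FPKM in shCtrl. The log2 fold changes were 0.90 (SE 0.04) for IL11, 0.58 (SE 0.06) for IL6 and -0.19 (SE 0.04) for LIF. None of the 3 genes had overlapping groups, and for LIF the highest shPARP1 library was close to the lowest shCtrl library. With an offset for gene length and GC content, IL6 had a log2 fold change of 0.39. The sum of the 3 in FPKM was 129 ± 3.96 in shPARP1 and 95.3 ± 1.42 in shCtrl. IL11 took 49.0% ± 0.877 of it in shPARP1 and 34.6% ± 1.28 in shCtrl, and LIF took 33.1% ± 0.570 in shPARP1 and 49.7% ± 1.17 in shCtrl.

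IL6 lies on chromosome 7 (22725884 to 22732002, plus strand), IL11 on chromosome 19 (55364389 to 55370463, minus strand) and LIF on chromosome 22 (30240447 to 30246851, minus strand). The promoters of IL6, chr7:22727030-22727199, and IL11, chr19:55370464-55370633, are shown to set their motifs beside those of the CXC genes. The IL6 run lies before the RefSeq start but inside the longer GENCODE body given.
IL6 promoter: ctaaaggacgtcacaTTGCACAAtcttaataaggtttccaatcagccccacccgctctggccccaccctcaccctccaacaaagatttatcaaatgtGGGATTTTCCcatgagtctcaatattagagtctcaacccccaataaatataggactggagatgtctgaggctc
IL11 promoter: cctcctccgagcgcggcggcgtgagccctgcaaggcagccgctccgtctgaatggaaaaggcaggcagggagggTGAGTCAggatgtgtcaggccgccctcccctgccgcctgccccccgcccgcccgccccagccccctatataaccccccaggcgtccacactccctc
IL6 held the NF-kB consensus at -73 to -64 and TTGCNNAA at -155 to -148. CXCL2 held both as well, with TTGCNNAA at -188 to -181, outside the bases printed. IL11 held neither, and held TGANTCA at -96 to -90, a motif that CXCL8 also held.

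IL1A (chromosome 2, 112773915 to 112784590, minus strand) held 0, 0 and 2 counts in shPARP1 and 3, 1 and 3 counts in shCtrl. These values were at or under 3 counts in every library, so no fold change is given.

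Ordered by FPKM, the 8 measurable genes had the same order in all 3 shPARP1 libraries, from CXCL8 down through CSF2, IL11, LIF, CXCL2, CSF1 and IL6 to CXCL3. Neighbours in this order did not overlap. In shCtrl the order began with CSF1, at 51.7 ± 1.88 FPKM, and LIF, at 47.4 ± 1.12 FPKM. It went on with IL11 (33.02 ± 1.70) and CXCL8 (32.1 ± 2.14), which overlapped, then CSF2 (15.0 ± 1.44), IL6 (14.9 ± 1.19) and CXCL2 (13.99 ± 0.849), which overlapped too, and ended with CXCL3 (2.86 ± 0.205). By FPKM, CSF1 thus went from rank 1 in shCtrl to rank 6 in shPARP1, and CXCL8 was at rank 1 in shPARP1. This order rests on the gene lengths behind the FPKM, which were not given. In shPARP1 CPM, not divided by length, CXCL8 (265) was followed by LIF (190), IL11 (168), CSF1 (141) and CSF2 (76.3). The sum over all 10 genes was 409 ± 2.70 FPKM in shPARP1 and 211 ± 1.65 FPKM in shCtrl (SD, n = 3 each).

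A sequence feature that the choice of genes did not use was the AUUUA pentamer of AU-rich elements, written ATTTA in the DNA alphabet. It was counted in the longest annotated 3' untranslated region of each gene in GENCODE 29. CSF2 had 8 pentamers in 318 bases, or 25.2 per kb, a density above that of 99.95% of 13062 tested genes. IL6 had 13.99 per kb, CXCL2 13.9, CXCL3 10.4, CXCL8 7.19 and CXCL1 7.08, against a median of 1.61 per kb over tested genes. IL11 had 5.56 per kb, IL1A 4.34, LIF 2.18 and CSF1 1.86. Windows of 30 bases with the most pentamers are shown for a dense and a sparse case among the colony-stimulating factors, and for CXCL2, CXCL8 and IL11. Capitals mark ATTTA.
CSF2 pentamer window: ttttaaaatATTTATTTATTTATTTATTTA
CSF1 pentamer window: tttatataaagtcATTTAaatatctATTTA
CXCL2 pentamer window: aagtcttctATTTATTTATTTATTTATTTA
CXCL8 pentamer window: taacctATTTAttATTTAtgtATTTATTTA
IL11 pentamer window: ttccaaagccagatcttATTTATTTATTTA
In CSF2 and CXCL2, 5 overlapping pentamers filled most of the window, whereas CSF1 had 2 that stood apart. The longer word TTATTTATT, a core target of tristetraprolin proteins, occurred 6 times in IL11, 5 times in CXCL2, 3 times each in CSF2 and CXCL1, 2 times in LIF and 1 time each in CXCL3 and CXCL8. It was absent from CSF1, IL6 and IL1A, and 9.40% of the 13062 tested genes held it.

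Over the 8 measurable members, pentamer density and log2 fold change had a Spearman rho of 0.69. This describes 8 genes chosen on these same fold changes in the same 6 libraries and is not a test. IL6, at 13.99 per kb, had a smaller log2 fold change (0.58) than CXCL8 (7.19 per kb, 1.84) and IL11 (5.56 per kb, 0.90). Over the other 13054 tested genes rho was -0.03. Genes with TTATTTATT, members left out, were called higher in 23.2% of 1222 cases and lower in 32.0%. Genes without it were called higher in 30.4% of 11832 cases and lower in 32.4%. Among these genes, the share called higher was smaller with the word than without it. The part of untranslated region length and expression level in these shares was not tested. Whether the word had a part in the changes of the members was not tested either.

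**Figure D3:**
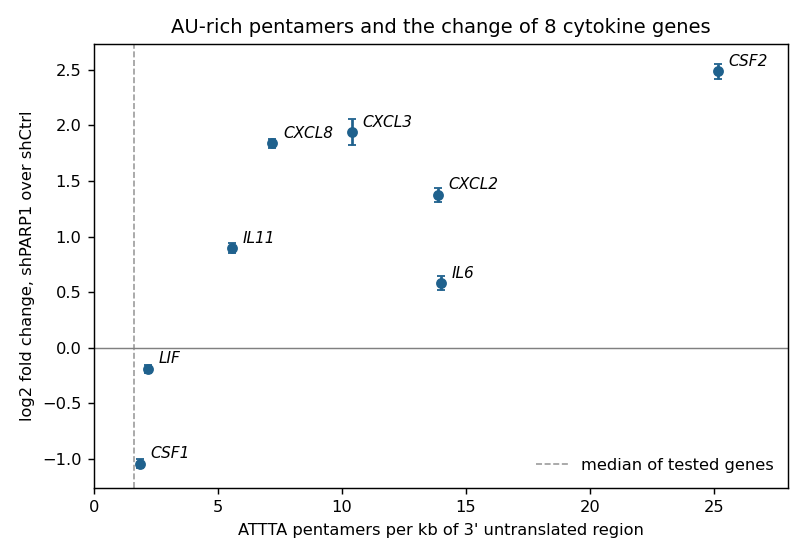
Log2 fold change, shPARP1 over shCtrl, with its standard error, against ATTTA pentamers per kb of 3' untranslated region for the 8 measurable cytokine genes; the dashed line is the median over tested genes. CSF2 stands at 25.2 pentamers per kb and 2.49, and LIF and CSF1, the members that were lower in shPARP1, stand near the median density. IL6 stands at 13.99 per kb and 0.58, below CXCL8 at 7.19 per kb and 1.84.

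Receptors for these ligands were mostly lower or barely expressed. Of a list of 28 receptor and accessory genes, 14 had enough counts to test: 1 was called higher, 10 lower and 3 neither. That was 78.6% called, where 55.7% of all tested genes were called, 27.3% higher and 28.5% lower. The median log2 fold change was -0.50, against -0.01 over all tested genes. IL1RAP, the accessory chain through which IL1A signals, fell to 3.73 ± 0.125 CPM in shPARP1, against 10.54 ± 1.45 CPM in shCtrl (SD, n = 3 each), a log2 fold change of -1.49 (edgeR adjusted p = 1.82e-15). Its partner IL1R1 fell by 0.50 on the log2 scale (edgeR adjusted p = 0.000198). The IL11 receptor chain IL11RA fell to 2.96 ± 0.415 CPM in shPARP1, against 5.49 ± 0.803 CPM in shCtrl, a log2 fold change of -0.89 (edgeR adjusted p = 2.53e-06). OSMR, the oncostatin M receptor, fell to 147 ± 1.24 CPM in shPARP1, against 258 ± 3.88 CPM in shCtrl, and the gp130-type receptor IL27RA fell to 65.4 ± 2.24 CPM, against 118 ± 3.47 CPM.

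The receptor that rose was IL6R, the binding chain for IL6, with 26.2 ± 0.952 CPM in shPARP1 and 21.7 ± 1.56 CPM in shCtrl (log2 fold change 0.27, edgeR adjusted p = 0.00124). IL6ST, the shared gp130 chain, fell by 0.27 on the log2 scale (edgeR adjusted p = 0.00470). Its call ended without shCtrl replicate 3, at -0.20 (adjusted p = 0.0514). The call ended as well on log2 FPKM, with 1 or 0.1 added, at -0.14 and -0.21 (limma adjusted p = 0.115 and 0.117). LIFR had a log2 fold change of -0.28 and did not pass the test (edgeR adjusted p = 0.181). CSF1R, the receptor of CSF1, had 22.3, 19.1 and 20.5 CPM in shPARP1 and 28.5, 24.1 and 26.5 CPM in shCtrl (-0.35, edgeR adjusted p = 8.44e-05). The interleukin-1 decoy receptor IL1R2 had a log2 fold change of -0.41 (edgeR adjusted p = 0.0189), with overlapping groups. It did not pass without shCtrl replicate 2 (-0.24, adjusted p = 0.228) or without shPARP1 replicate 2 (0.0797) or 3 (0.0758). Nor did it pass in DESeq2 (adjusted p = 0.0828) or on log2 FPKM (limma adjusted p = 0.0825 and 0.0809). The chemokine receptor CXCR2 held 3, 0 and 1 counts in shPARP1 and 0, 1 and 1 counts in shCtrl. The GM-CSF receptor chain CSF2RA held 1 count in all, in its pseudoautosomal row, and the partner chain CSF2RB held 5 to 9 counts a library in shPARP1 and 7 to 12 in shCtrl.

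**Figure D4:**
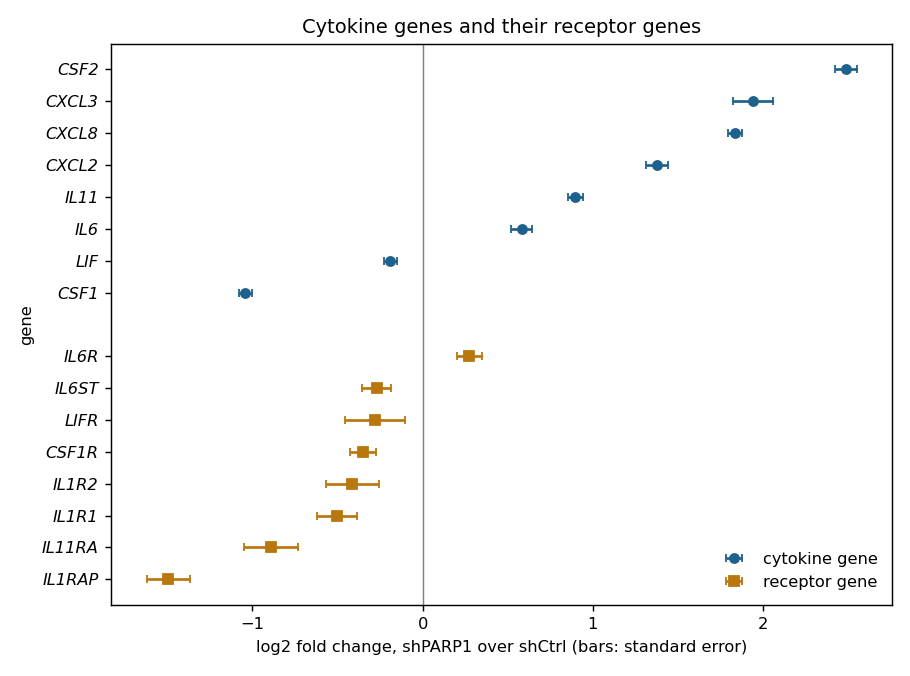
Log2 fold changes, shPARP1 over shCtrl, with standard errors, for the 8 measurable cytokine genes (circles, above) and 8 receptor genes that passed the filter (squares, below). IL1R1, IL1R2 and IL1RAP are receptor genes for IL1A, which is not plotted. The ligands run from 2.49 for CSF2 down to -1.04 for CSF1, and among the receptors IL6R alone lies above 0.

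Below the receptors, 7 of 38 tested genes of gp130 and interleukin-1 signalling rose and 12 fell, so 19 were called, where the share of all genes was 55.7%. STAT3, the main transcription factor below gp130, rose to 126 ± 2.07 CPM in shPARP1, against 97.7 ± 4.67 CPM in shCtrl (log2 fold change 0.37). The interleukin-1 receptor kinase IRAK1 (0.38) and the ubiquitin-conjugating enzyme UBE2N (0.64) rose as well. STAT5B (-0.56) and STAT6 (-0.36) fell, as did the feedback inhibitor SOCS3, named here after its values were seen (-0.32).

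Other chemokine and cytokine genes moved both ways. Of 94 listed, 24 were tested, 6 rose and 7 fell, or 54.2% called, and their median log2 fold change was -0.03. Both values were close to those of all tested genes, 55.7% and -0.01. CXCL5, a further neutrophil chemokine, rose to 59.9 ± 2.82 CPM in shPARP1, against 39.8 ± 0.830 CPM in shCtrl (log2 fold change 0.59). IL32 rose to 313 ± 16.1 CPM in shPARP1, against 190 ± 9.39 CPM in shCtrl (0.72), and IL18, a cytokine of the interleukin-1 family, rose by 0.44. The IL18 call ended with the length and GC offset (0.25, adjusted p = 0.0883). The 2 membrane-bound chemokines fell, CXCL16 to 17.4 ± 0.698 CPM in shPARP1, against 37.7 ± 1.98 CPM in shCtrl (-1.11), and CX3CL1 to 103 ± 4.03 CPM, against 157 ± 5.38 CPM (-0.60).

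Of 38 tested regulators known to act on promoters of these cytokines, 18 rose and 9 fell, or 71.1% called. Among all tested genes 55.7% were called, 27.3% higher and 28.5% lower. The AP-1 subunit FOSL1 rose to 321 ± 10.1 CPM in shPARP1, against 174 ± 4.91 CPM in shCtrl (log2 fold change 0.89). NFKBIB, an inhibitor that holds NF-kB in the cytoplasm, rose to 40.9 ± 2.23 CPM, against 18.1 ± 1.59 CPM (1.17), and the chromatin protein HMGB1 rose by 0.64. The NF-kB subunit RELA (-0.34), the NF-kB regulator NFKBIZ (-0.53) and SP1 (-0.62) fell. Named after their values were seen, NFKB1 (-0.43) fell, and RELB (0.57), NFKBIA (0.53), FOSB (1.32) and CEBPB (0.20) rose.

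Factors that bind or degrade AU-rich mRNAs were tested in full, with 11 of 41 higher and 16 lower, or 65.9% called, where 55.7% of all tested genes were called, 27.3% higher and 28.5% lower. ZFP36L1, a tristetraprolin family protein that binds TTATTTATT, fell to 240 ± 9.25 CPM in shPARP1, against 330 ± 14.5 CPM in shCtrl (log2 fold change -0.46). The deadenylase scaffold CNOT1 (-0.45) and the RNA-binding protein TIA1 (-0.81) fell, as did tristetraprolin itself, ZFP36, named after its values were seen (-0.32). ZFP36L2, the other family member listed and also named after its values were seen, was not called (0.12, edgeR adjusted p = 0.325). Of other listed factors named after their values were seen, KHSRP (-0.05) and HNRNPD (0.002) were not called, and ELAVL1 (0.10) and ZC3H12A (0.26) rose. The exosome subunits EXOSC2 (0.48) and EXOSC3 (0.86) and the mRNA-binding protein YBX1 (0.32) rose. Protein levels and mRNA half-lives were not measured.

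Genes beside the members were examined last. Within 500 kb of a member, 122 other genes were tested, 42 rose and 24 fell, a called share of 54.1%, with a median log2 fold change of 0.08. The called share was close to the 55.7% of all tested genes, whose median was -0.01. Those with the smallest p included AREG (1.75), an EGF receptor ligand near CXCL2, and EPN1 (1.01) and UBE2S (0.81) near IL11, which rose. SLC20A1 (-0.53), SLC6A17 (-0.78) and NAT14 (-1.03) fell. The neighbours were also split by chromosome, a split chosen after the values were seen and not tested. Of 8 tested genes on chromosome 4, 7 rose and 1 fell, where 27.3% of all tested genes rose, and 2 of the 7 calls, RASSF6 and AC142293.3, ended under at least 1 alternative. On the other chromosomes 35 of 114 rose and 23 fell.

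The rising neighbours on chromosome 4 lay on both sides of the cluster. CXCL5, between CXCL1 and CXCL3, was the only 1 of the 7 other genes between CXCL8 and CXCL2 to be tested, and the rest, among them CXCL6, PF4 and PPBP, were near 0. AREG rose to 86.8 ± 6.59 CPM in shPARP1, against 25.9 ± 1.62 CPM in shCtrl, and EREG, a further EGF receptor ligand, rose to 71.3 ± 1.86 CPM, against 35.1 ± 1.87 CPM (1.02). Named after their values were seen, as was EREG, MTHFD2L (0.85), AFP (1.04), RASSF6 (1.12) and AC142293.3 (1.05) also rose, at means under 4 CPM in both groups. The call of RASSF6 (edgeR adjusted p = 0.0359) ended in DESeq2 (adjusted p = 0.121), without the filter, on log2 FPKM and without 4 of the 6 libraries in turn. That of AC142293.3 ended without shCtrl replicate 1 (0.77, adjusted p = 0.0798) and with the length and GC offset (0.73, adjusted p = 0.0763). ANKRD17, the tested gene farthest from the cluster at lower coordinates, fell by 0.35 on the log2 scale.

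**Figure D5:**
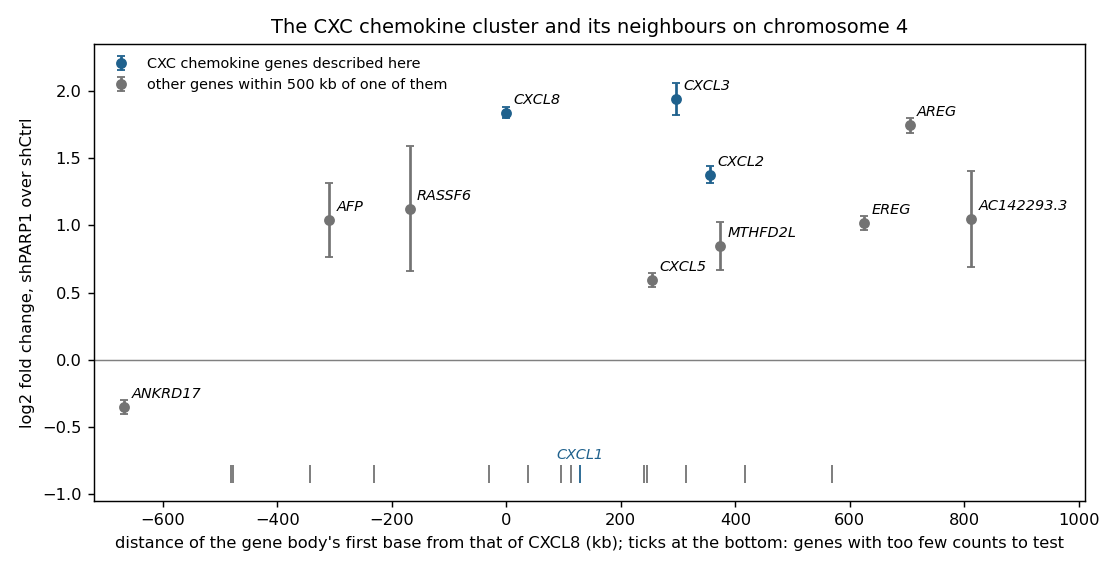
Log2 fold change, shPARP1 over shCtrl, with its standard error, against distance from CXCL8 for tested genes within 500 kb of CXCL1, CXCL2, CXCL3 or CXCL8; ticks mark genes with too few counts to test, CXCL1 among them. All tested genes of the region lie above 0 except ANKRD17, at -0.35.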

How the data were processed

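RNA of HK-2 cells was sequenced in 3 shPARP1 and 3 shCtrl libraries. The authors deposited raw whole-number counts per gene, and a second table of FPKM. GRCh38, bcl2fastq, TopHat2 and edgeR are named, with no versions, per the submitters' processing notes. Which program counted reads, whether it used strand, and which gene models it used were not given in the sources used here. Samples were grouped by their titles. The count test used edgeR 4.0.16 under R 4.3.3: filterByExpr (16040 genes), TMM scaling and the robust quasi-likelihood F test, Benjamini-Hochberg adjusted, with shPARP1 over shCtrl. SE is the absolute log2 fold change over the root of F. Intervals and count floors cover counting error only. Members, lists and tests were chosen with earlier results of these data known. Named genes were the members, their receptors, and from each list up to 3 risers and 3 fallers of smallest p averaging 1 CPM or more, and genes between members on chromosome 4; others are marked in the text. Some genes that met this rule are not reported here. Gene models came from GENCODE 29 (GRCh38), promoters from RefSeq (8 of 10 members matched), motifs and alignments from Python 3.11.15. Alternatives were other scalings, filters, limma 3.58.1 on counts or log2 FPKM, DESeq2 1.42.0, a length and GC offset (99.2% of genes), a replicate block and leaving out each library. The test was tried on simulated data.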

Additional observations from a re-analysis of the deposited data

How the results depend on the processing

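All 8 measurable members kept the direction of their log2 fold change under the 18 alternatives, and the counts of calls stayed within 1.5 times. Lowest and highest values were 2.26 and 2.55 for CSF2, 1.68 and 1.99 for CXCL3, 1.62 and 1.88 for CXCL8, 1.15 and 1.43 for CXCL2, 0.82 and 0.94 for IL11, 0.39 and 0.63 for IL6, -0.21 and -0.14 for LIF and -1.07 and -0.93 for CSF1. The length and GC offset gave the lowest value for CSF2, CXCL8, CXCL2, IL11 and IL6, and the cause was not tested. Same-numbered libraries of the 2 groups had correlations of -0.00421 to 0.0362, and differently numbered ones of -0.0591 to 0.0255. These values cannot settle whether same-numbered libraries were handled together, and the main test did not pair them. The replicate block gave 9060 called genes, against 8937 without it. Leaving out a library gave 8220 to 8646. Of the other named genes, IL1R2, IL6ST, IL18, RASSF6 and AC142293.3 lost their call under at least 1 alternative. KHSRP, HNRNPD, ELAVL1 and ZC3H12A were not followed under the alternatives. CXCL1 and IL1A, at 0 to 3 counts a library, gave no fold change at these depths.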
